A study of Mus musculus with 14 samples.

Results

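Naive pluripotency is the state of mouse embryonic stem cells that resembles the epiblast before implantation, and 10 genes that mark or sustain it were followed here: Klf2, Klf4, Klf5, Zfp42, Esrrb, Tfcp2l1, Tbx3, Nr0b1, Dppa5a and Tcl1. They were chosen by name as known naive state genes, and all 10 were found among the 24054 genes of the deposited tables. All 10 also passed the filter on low counts, which left 13899 genes to be tested across days and genotypes and 12943 genes to be tested after doxycycline.

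RNA was sequenced from sorted cells in 14 libraries. The groups d0con and d3con carry Foxa2-Venus-KO/+, in which the fluorescent protein Venus replaces the coding region of 1 allele of Foxa2, a pioneer transcription factor of endoderm. The groups d0ko and d3ko carry Foxa2-Venus-KO/Foxa2-Venus-KO, with the same replacement on both alleles. The doxycycline groups d2-FVFn and d2-FVFp come from another line, TetON-Foxa2-Venus (T119). Day 0 cells (d0con and d0ko, 2 libraries each) had been split onto fibroblast feeders in medium that lacked LIF, the cytokine that sustains self-renewal, and were sorted a day later as Cherry-negative cells, away from red-fluorescent feeders. Day 3 cells (d3con and d3ko, 3 libraries each) had gone from such cultures onto Wnt3a-secreting feeders with 12 ng/ml Activin A, and the Venus-positive cells were sorted. The doxycycline cells received 40 ng/ml doxycycline for 48 hours, and Venus-negative (d2-FVFn) and Venus-positive (d2-FVFp) cells were sorted, 2 libraries each. Each genotype was represented by 2 clones, C59 and C63 for Foxa2-Venus-KO/+ and C9 and C17 for Foxa2-Venus-KO/Foxa2-Venus-KO. Replicate 2 was C63 or C17, and the other replicates were C59 or C9, so d3con and d3ko replicates 1 and 3 share a clone. The replicates are separate libraries, and the p-values measure the spread between libraries, some of which come from 1 clone.

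Naive cells are held in their state by a network in which LIF acts through Stat3 on Klf4 and Tfcp2l1, while inhibition of Gsk3 relieves repression by Tcf3 (gene Tcf7l1) of targets such as Esrrb and Klf2. The genes of the network are switched off as cells pass through a formative to a primed state, before germ layer genes come on. The Krüppel-like factors Klf2, Klf4 and Klf5 are zinc finger proteins with overlapping roles, Esrrb and Nr0b1 are orphan nuclear receptors, Tfcp2l1 and Tbx3 are transcription factors, Zfp42 (also called Rex1) is a zinc finger protein used as a marker of the state, Dppa5a is an RNA-binding protein and Tcl1 is a cofactor of the kinase Akt.

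Promoter sequence was available from RefSeq for 7 of the 10 genes, with 8 start sites, since Esrrb had an entry for each of 2 starts. Tbx3, Dppa5a and Klf5 are named only. Each entry covers 250 bases before and 50 after the start on the GRCm38.p6 build. Both strands were searched for GGGTGTG and GGGCGTG (Krüppel-like factor), TCAAGGTCA (Esrrb), TTCNNNGAA (Stat3) and TGTTTAC (Foxa). A Krüppel-like factor match was present in 3 of the 8 entries, and 15.5% of all 32851 entries hold one. A Stat3 match was present in 1 entry, against 8.3% of all. The Esrrb and Foxa letters, which are held by 0.423% and 3.65% of all entries, were in none of the 8 windows. The 3 promoters with a match are shown with the matched letters in capitals. That of Klf4 is shown beside them as a member without a match that rose in Foxa2-expressing cells. Each reads 5′ to 3′ on the strand of its gene, in the order Tfcp2l1 (chr1:118627695-118627994, plus strand), Zfp42 (chr8:43306960-43307259, minus strand), Esrrb (chr12:86360867-86361166, plus strand) and Klf4 (chr4:55532426-55532725, minus strand).
Tfcp2l1: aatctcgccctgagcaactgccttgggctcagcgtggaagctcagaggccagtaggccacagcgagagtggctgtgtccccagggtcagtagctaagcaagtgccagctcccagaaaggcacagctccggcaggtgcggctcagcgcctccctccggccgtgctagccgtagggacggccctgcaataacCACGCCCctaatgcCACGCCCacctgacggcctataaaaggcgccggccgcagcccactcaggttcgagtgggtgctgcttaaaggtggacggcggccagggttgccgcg
Zfp42: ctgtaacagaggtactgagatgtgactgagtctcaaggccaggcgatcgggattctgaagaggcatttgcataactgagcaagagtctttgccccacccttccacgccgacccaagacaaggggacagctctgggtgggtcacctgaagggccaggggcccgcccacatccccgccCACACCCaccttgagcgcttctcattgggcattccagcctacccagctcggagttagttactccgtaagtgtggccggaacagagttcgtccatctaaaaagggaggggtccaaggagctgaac
Esrrb: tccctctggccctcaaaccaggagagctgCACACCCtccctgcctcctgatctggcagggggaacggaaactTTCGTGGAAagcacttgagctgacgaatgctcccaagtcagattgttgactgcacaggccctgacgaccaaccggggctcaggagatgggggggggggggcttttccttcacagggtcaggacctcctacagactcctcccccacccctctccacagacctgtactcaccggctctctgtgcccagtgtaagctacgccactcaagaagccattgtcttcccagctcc
Klf4: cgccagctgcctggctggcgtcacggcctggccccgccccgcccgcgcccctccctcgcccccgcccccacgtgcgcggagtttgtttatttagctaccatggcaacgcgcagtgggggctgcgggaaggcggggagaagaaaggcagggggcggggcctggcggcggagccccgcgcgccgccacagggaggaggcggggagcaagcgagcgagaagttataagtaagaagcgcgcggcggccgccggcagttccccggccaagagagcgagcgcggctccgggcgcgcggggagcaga
In Esrrb both a Krüppel-like factor and a Stat3 match lie upstream of the start. These matches describe letters and not bound sites, since no binding was measured in these libraries.

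Depth ranged from 14142788 to 27278237 expected counts per library. Levels are given in TPM, a unit scaled for gene length and library total, so that genes can be compared with each other. At day 3 the replicate 1 libraries had 75-base reads, and all others had 50-base reads. Foxa2 itself (chromosome 2, 148042877 to 148046969) lay between 0.07 and 0.19 TPM in all day 0 and d3ko libraries, between 34.8 and 58.6 TPM in d3con, at 2.01 and 2.99 TPM in d2-FVFn and at 160 and 169 TPM in d2-FVFp, which follows the labels. One library stood apart: d3ko replicate 2, the only d3ko library of clone C17, had lower levels of all 10 genes than the other d3ko libraries. Its chromosome 8 genes had a median of -0.42 on the log2 scale against d3ko replicates 1 and 3, while the autosomes other than 8 and 14 lay between -0.01 and 0.08. The median of its chromosome X genes was 0.22. At day 0 the chromosome 8 genes of the C17 library, d0ko replicate 2, had a median of -0.06 against d0ko replicate 1.

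At day 0 the levels spanned 3 orders of size. Dppa5a (chromosome 9, 78367052 to 78368199) had 13300 and 11400 TPM in d0con, or 1.33% and 1.14% of all transcripts. Its expected count was fractional in all 14 libraries, against 5 to 11 libraries for the other members, so some of its reads matched other genes. The size of that part was not measured, and its level may be less certain for it. Zfp42 (chromosome 8, 43295067 to 43307009) came next, with 482 and 532 TPM, followed by Klf5 (chromosome 14, 99298691 to 99313412) with 383 and 369 TPM. Klf2 (chromosome 8, 72319062 to 72321654) had 278 and 293 TPM and Nr0b1 (chromosome X, 86191775 to 86195947) 305 and 199 TPM. The remaining members were less abundant. Tcl1 (chromosome 12, 105216753 to 105222737) had 159 and 136 TPM, Esrrb (chromosome 12, 86361117 to 86521628) 59.1 and 54.8 TPM and Tfcp2l1 (chromosome 1, 118627923 to 118685168) 52.9 and 54.7 TPM. The lowest were Klf4 (chromosome 4, 55527137 to 55532475), with 17.7 and 27.1 TPM, and Tbx3 (chromosome 5, 119670534 to 119684724), with 21.9 and 13.1 TPM. All 10 are protein-coding.

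**Figure D1:**
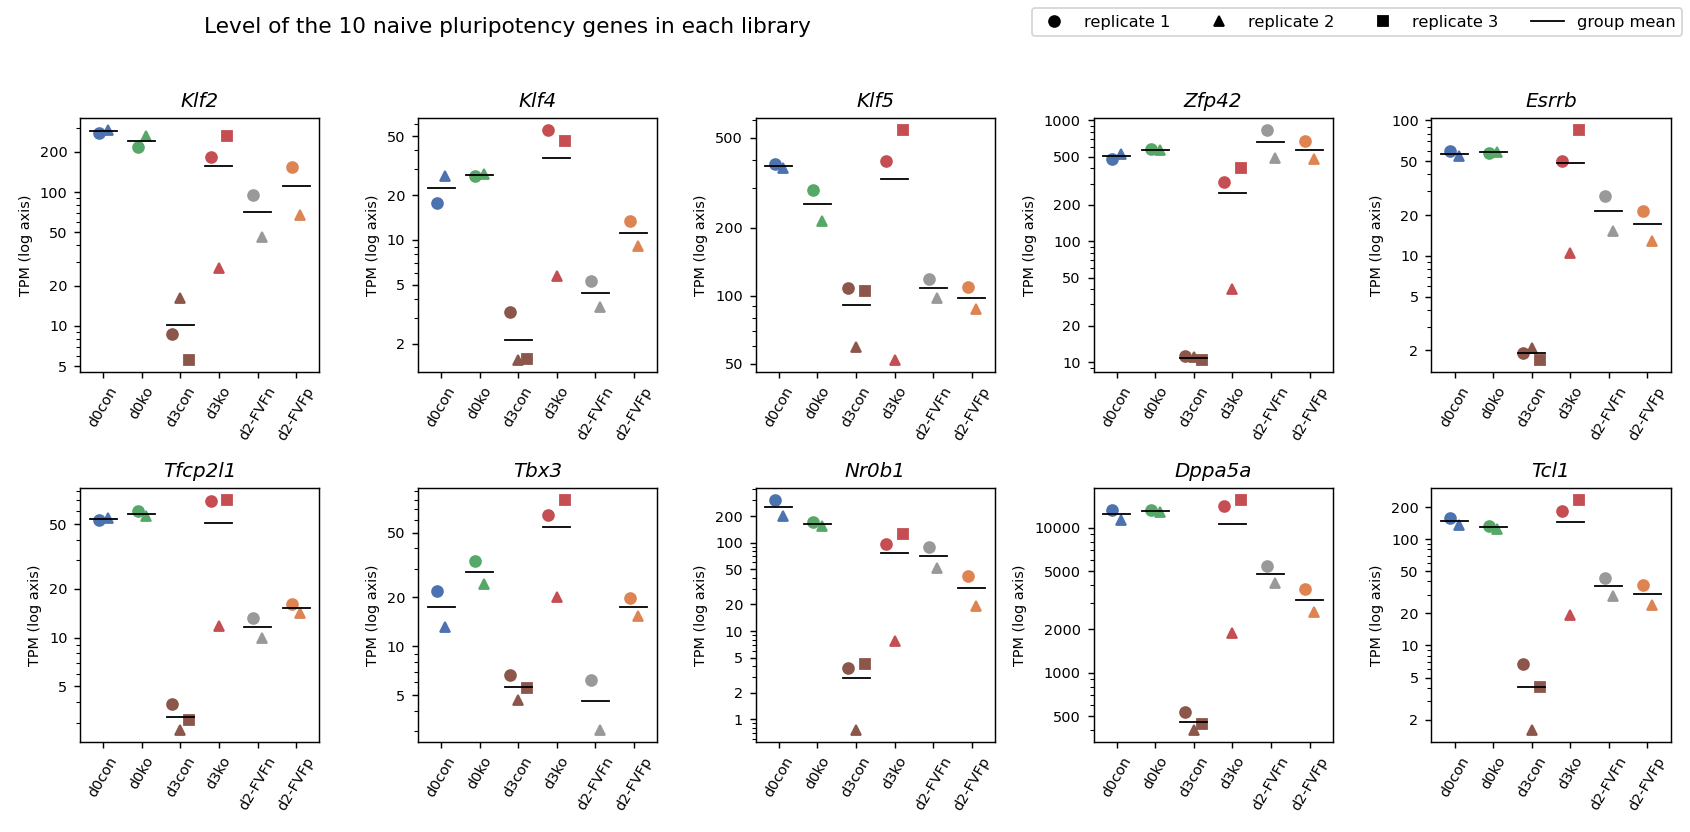
Level of each gene in TPM on a log axis (y) in the 6 groups (x), with 1 point per library, the marker giving the replicate number and the bar the group mean. All d3con points of each gene lie below all its day 0 points, and the d3ko triangle (replicate 2) lies below the other d3ko points in each panel.

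Removal of Foxa2 was compared first in undifferentiated cells. None of the 10 genes was called in d0ko over d0con, where 0.0% of all 13899 genes were called (edgeR, with an adjusted p under 0.05 and a log2 fold change past 1 in either direction). None of the 10 had an unadjusted p under 0.05 in this fit of all 10 day 0 and day 3 libraries, and DESeq2 also called 0. The log2 fold changes ran from -0.68 (Nr0b1) to 0.68 (Tbx3), with a median of 0.01 beside 0.02 for all genes. Nr0b1 had 170 and 153 TPM in d0ko, under both d0con values, and Klf5 had 294 and 214 TPM, also under both. In an edgeR fit of only d0ko and d0con, 4 of the 10 members had an unadjusted p under 0.05, and none was called. Of all 12408 genes in that fit, 1377 had such a p. When DESeq2 was run on the 4 day 0 libraries alone, chosen after seeing the data, Klf5 (-0.61, adjusted p = 0.0271) and Nr0b1 (-0.68, adjusted p = 0.0414) passed on p and stayed under the fold threshold. In d0ko Klf2 had 216 and 264 TPM, under both d0con values, and Tbx3 had 33.5 and 24.2 TPM, above both. Zfp42 had 575 and 568 TPM, above both d0con values as well, while Esrrb, at 57.4 and 58.8 TPM, overlapped the controls.

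Differentiation of control cells was accompanied by a fall of the whole group. All 10 genes were called lower in d3con than in d0con, where 14.6% of all genes were called lower, and in all 10 every d0con library exceeded every d3con library, as 29.2% of all genes did. The median log2 fold change was -4.99, beside 0.07 for all genes tested. The falls differed widely between members.

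Nr0b1 and Zfp42 fell the furthest. Nr0b1 was left with 3.84, 0.75 and 4.29 TPM (log2 change of -6.6, SE 1.05, edgeR adjusted p = 0.00119). Zfp42 had 11.2, 10.9 and 10.3 TPM in d3con (-5.75, SE 0.76, adjusted p = 0.00054). Esrrb was at 1.92, 2.09 and 1.69 TPM (-5.11, SE 0.68, adjusted p = 0.000563). Libraries of both clones thus gave like low levels of Zfp42 and Esrrb. For Nr0b1 and Tcl1 the C63 library was lower than both C59 libraries. Tcl1, the Akt cofactor, had 6.67, 1.59 and 4.04 TPM (-5.34, SE 0.91, adjusted p = 0.00158). Dppa5a went to 536, 400 and 445 TPM (-4.96, SE 0.71, adjusted p = 0.000736), still the highest level of any member in d3con. Tfcp2l1 went to 3.9, 2.68 and 3.1 TPM (-4.25, SE 0.63, adjusted p = 0.000848).

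Of the Krüppel-like factors, Klf2 fell to 8.72, 16.1 and 5.52 TPM (log2 fold change -5.03, SE 0.8, edgeR adjusted p = 0.00117). Klf4 fell to 3.28, 1.55 and 1.58 TPM (-3.57, SE 0.78, adjusted p = 0.00501). Klf5 kept 109, 59.4 and 105 TPM (-2.25, SE 0.71, adjusted p = 0.0257). Tbx3, a T-box factor that is also active in endoderm, kept 6.67, 4.68 and 5.57 TPM, the smallest fall of the group (-1.82, SE 0.5, adjusted p = 0.0135). Klf5 was no longer called without d0con replicate 1 or 2 or without d3con replicate 2 or 3 (adjusted p 0.0844, 0.0789, 0.0722 and 0.0621), and Tbx3 without d0con replicate 1 (adjusted p = 0.105). The other 8 members were called lower in each fit that left out a library.

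Because the 3 Krüppel-like factors did not fall alike, their make-up changed. Klf5 accounted for 56.5% and 53.6% of the summed Klf2, Klf4 and Klf5 TPM in d0con and for 90%, 77.1% and 93.6% in d3con. Klf2 went from 40.9% and 42.5% to 7.2%, 20.9% and 4.9%. The d3con library of clone C63 kept the larger Klf2 share. Klf4 was a small part throughout, with 2.6% and 3.9% in d0con and 1.4% to 2.7% in d3con. In d3ko the Klf5 share was 62.2%, 61.3% and 63.8% and the Klf2 share 29%, 31.9% and 30.8%. The d3ko shares of Klf5 and Klf2 lay between those of d0con and d3con, and replicate 2, whose sum was 84.5 TPM against 632 and 851 TPM, had the same make-up as the other 2 libraries. These shares are a description with no test.

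**Figure D2:**
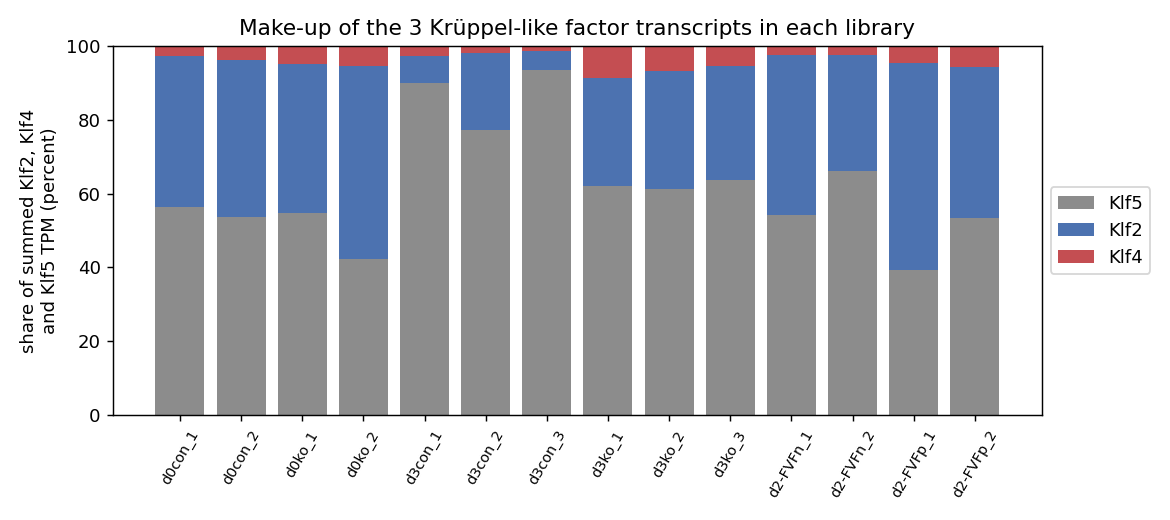
Share in percent (y) of Klf5, Klf2 and Klf4 in their summed TPM in each library (x), as stacked bars that reach 100%. Klf5 makes up 77.1% to 93.6% in the d3con libraries and 39.4% to 66.1% in all others.

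Cells sorted as Venus-positive at day 3 were then compared between genotypes, which asks what differs in the absence of Foxa2. All but Klf5 were called higher in d3ko than in d3con, that is 9 of 10 members, where 4.75% of all genes were called higher. No member was called lower, as 3.51% of all genes were. In the same 9 every d3ko library lay above every d3con library, as in 11.5% of all genes. The median log2 fold change was 4.28, beside 0.02 for all genes.

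Among the transcription factors, Esrrb had 50, 10.5 and 85.4 TPM in d3ko, higher than d3con by a log2 difference of 4.68 (SE 0.65, edgeR adjusted p = 0.00938). Tfcp2l1 had 69.7, 11.8 and 70.6 TPM (3.97, SE 0.6, adjusted p = 0.0107). Tbx3 had 63.8, 20.1 and 79.7 TPM (3.27, SE 0.48, adjusted p = 0.0107). In all 3 the libraries of clone C9 were several times above that of C17, and C17 was itself above the highest d3con library, by 5.03 times for Esrrb, 3.02 times for Tfcp2l1 and 3.01 times for Tbx3. Nr0b1 had 97.8, 7.76 and 126 TPM (4.69, SE 0.95, adjusted p = 0.0198). Here the C17 library was 14.4 times below the mean of the others, the widest gap of any member, and 1.81 times above the highest d3con library. Tcl1 had 183, 19.5 and 234 TPM, the largest difference between genotypes (5.13, SE 0.88, adjusted p = 0.0127). Klf2 had 184, 26.9 and 262 TPM (3.97, SE 0.74, adjusted p = 0.0157). Klf5, the exception, had 394, 51.8 and 543 TPM, so that its C17 library was below all 3 d3con libraries (1.86, SE 0.66, adjusted p = 0.105).

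Klf4, a target of Stat3, had 55.1, 5.74 and 46.2 TPM in d3ko, and Zfp42 had 309, 40 and 400 TPM. The C9 libraries thus exceeded the day 0 level for Klf4 and stayed below it for Zfp42. Clone C17 fell to 0.206 of its own day 0 level for Klf4 and to 0.0706 for Zfp42. Zfp42 and Klf2 lie on chromosome 8, whose genes were lower in C17 at day 3 by the amount given above. Their differences between C17 and C9, -3.14 and -3.01 on the log2 scale, were within the range of -1.85 to -3.7 of the members on other chromosomes. Klf5 is on chromosome 14, whose genes in d0con replicate 1 had a median of 0.18 against replicate 2, while Klf5 itself differed by 0.04 between the 2. Whether these chromosome shifts had a part in the levels was not tested.

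The call rested on how clones and libraries were counted. Without d3ko replicate 2 all 10 members were called higher, Klf5 among them (2.36, edgeR adjusted p = 0.000739). Without d3con replicate 3 none was called, with adjusted p-values of 0.0585 to 0.234, and without d3con replicate 1 6 were called, with Klf2, Klf4 and Nr0b1 lost. When libraries of the same clone and day were summed, so that 2 clones faced 2 clones, none was called (adjusted p 0.105 to 0.369). None was called either in a fit of only these 2 groups (0.0515 to 0.221) or with both 75-base libraries left out (0.126 to 0.345). The log2 fold change of each member was positive in all these fits. Genotype and the particular clones cannot be told apart with 2 clones of each.

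**Figure D3:**
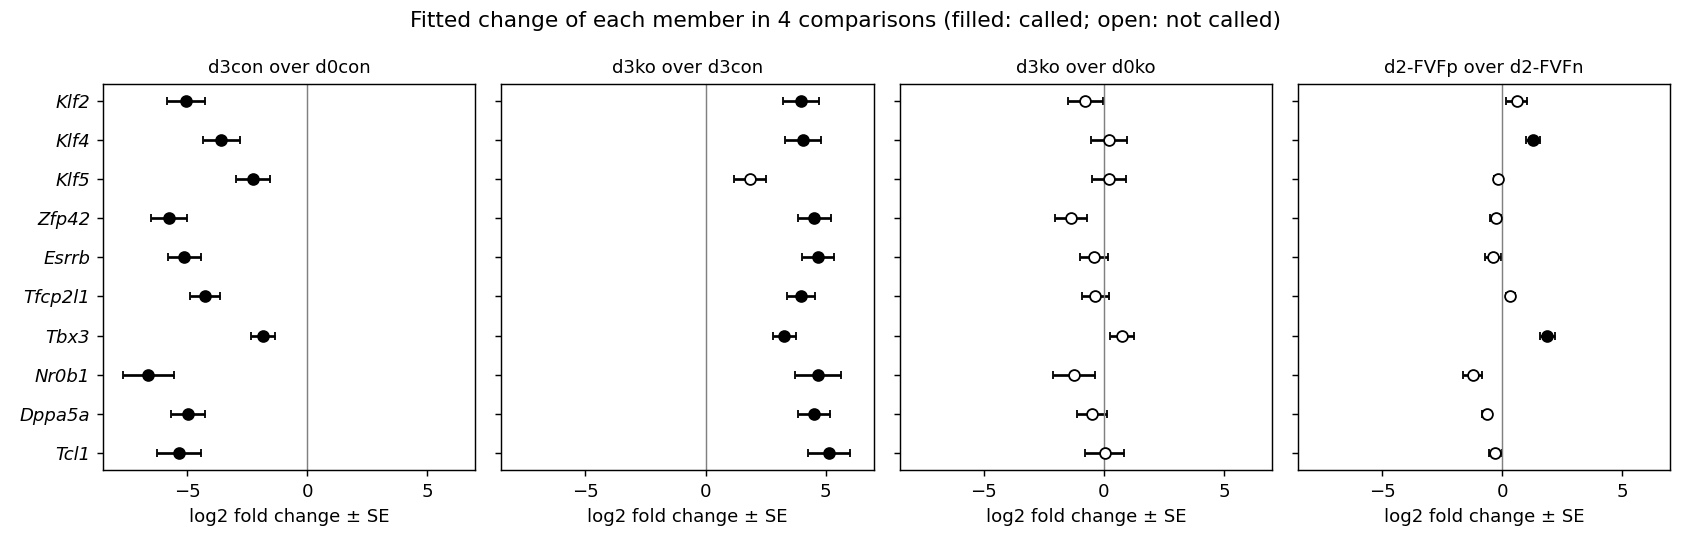
Fitted log2 fold change with its standard error (x) of each gene (y) in 4 comparisons, with called genes filled. All 10 points are filled and negative for d3con over d0con, 9 are filled and positive for d3ko over d3con, none is filled for d3ko over d0ko, and Klf4 and Tbx3 are filled for d2-FVFp over d2-FVFn.

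Within ko cells the group did not pass as changed from day 0 to day 3. None of the 10 was called in d3ko over d0ko with edgeR, where 11.6% of all genes were called higher and 5.72% lower. None had an unadjusted p under 0.05, and DESeq2 called 0. The log2 fold changes ran from -1.36 for Zfp42 (SE 0.66, adjusted p = 0.146) to 0.76 for Tbx3 (SE 0.5, adjusted p = 0.277), with a median of -0.38, which was 0.1 without d3ko replicate 2. The clones did not move together. In C9 both day 3 libraries were at or above the day 0 library in 6 members and below it in 2, Zfp42 and Nr0b1. In C17 all 10 members were below the day 0 library of that clone, from 0.0507 of it for Nr0b1 to 0.831 for Tbx3. Without the C17 library Tbx3 was called higher (1.16, adjusted p = 0.0187). With the clone as a block, which pairs each day 3 library with the day 0 library of its clone, Zfp42 was called lower (-2.29, adjusted p = 0.0364) and the median moved to -1.11.

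Whether the change over time differed between genotypes was tested with the interaction of genotype and day. None of the 10 was called with edgeR, as was 0.0% of all genes, although all 10 were positive (2.46 for Klf5 to 5.37 for Nr0b1 and Tcl1) with an unadjusted p under 0.05. Their adjusted p-values were 0.129 to 0.343. DESeq2 called 9 of them, and without d3ko replicate 2 edgeR called all 10.

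The level of each d3ko library can be placed on a scale from the d3con mean (0) to the d0con mean (1) of the same gene, on log2(CPM + 1). The median over the 10 members was 0.97 and 1.06 for the C9 libraries and 0.39 for the C17 library. Over all 2027 genes called lower in d3con than in d0con the medians were 0.42, 0.15 and 0.61 for replicates 1, 2 and 3. The d3con libraries enter both the choice of those genes and the scale, and the values are a description with no test. Tbx3 lay at 2, 1.01 and 2.16, above the day 0 mean in all 3 libraries. Klf4 lay at 1.35, 0.37 and 1.26. Klf5 was the 1 member with a library below 0, at 0.95, -0.34 and 1.14. The least complete in C9 was Nr0b1, at 0.76 and 0.81, followed by Zfp42 at 0.84 and 0.9 and Klf2 at 0.84 and 0.93.

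**Figure D4:**
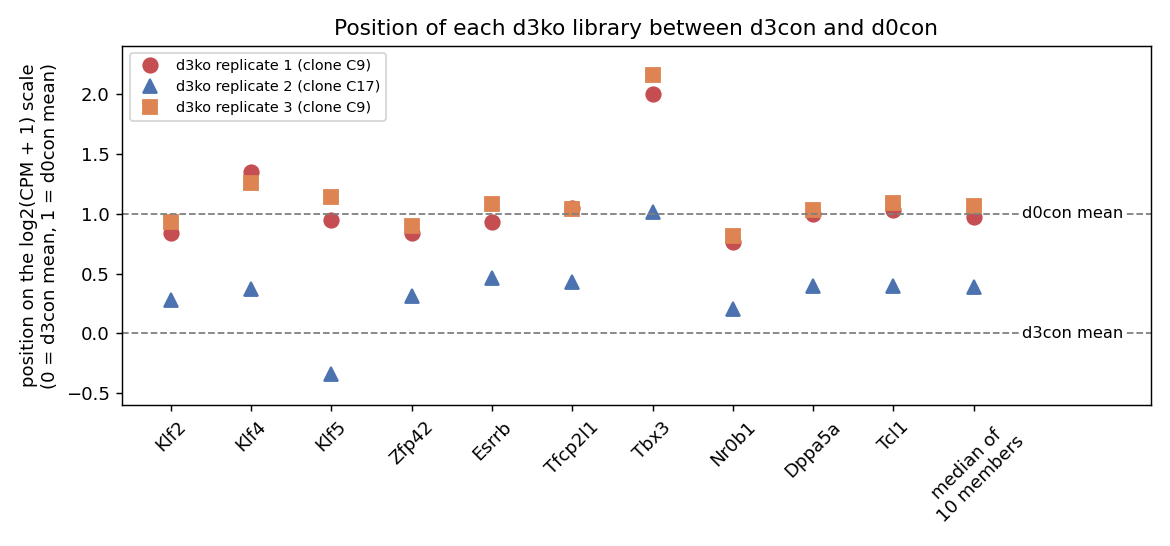
Position of each d3ko library (y, 0 at the d3con mean and 1 at the d0con mean on the log2(CPM + 1) scale) for each member and for their median (x). The C9 libraries lie near 1 for most members with Tbx3 near 2, and the C17 library lies between 0.2 and 0.46 except for Klf5 (-0.34) and Tbx3 (1.01).

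Markers of other cell types were set beside these levels, and their part in the results was not tested. The 8 mesendoderm markers, T and Eomes among them, summed to 329, 1180 and 206 TPM in d3ko and to 1020, 1350 and 1060 TPM in d3con, with all 8 above 1 TPM in each of these libraries. The C17 library, low in the naive genes, was thus within the d3con range for this sum, and the C9 libraries were lower. At day 0 the sum lay between 6.59 and 8.82 TPM. All 8 markers were called higher in d3ko than in d0ko, as 11.6% of all genes were. Fgf8 and Lhx1 weighed most in the sum, with d3con means of 570 and 230 TPM. The markers did not move alike: T, Mixl1 and Mesp1 had positive log2 fold changes in d3ko over d3con (0.84, 0.43 and 1.12, not called). The other 5 were negative, and 1 of them, Gsc, was called lower. The 8 definitive endoderm markers summed to between 789 and 1230 TPM in d3ko and between 3770 and 5390 TPM in d3con, with 5 to 6 and all 8 of them above 1 TPM. Trh made up 79.2% to 97.5% of this sum in d3ko and 79.8% to 81.6% in d3con, and the other 7 summed to between 30.1 and 164 TPM in d3ko and between 761 and 991 TPM in d3con. Foxa1 was at 0.07 to 0.13 TPM in d3ko, and Sox17 at 0.76 to 2.1 TPM. Fibroblast markers, which feeder cells would bring, summed to between 147 and 370 TPM in d3ko and between 64.9 and 318 TPM in d3con, so these ranges overlapped, with the C17 and C63 libraries the lowest of their groups. At day 0 they were at 15.2 and 18.1 TPM in d0con and at 44.6 and 155 TPM in d0ko. Primitive and parietal endoderm markers lay between 221 and 513 TPM in d3ko and between 425 and 773 TPM in d3con. Primordial germ cell markers, which naive cells share in part, lay between 418 and 728 TPM in d3ko and between 340 and 405 TPM in d3con. Ifitm3 weighed most in this sum, with means of 468 TPM in d3ko and 215 TPM in d3con. These 8 markers did not move alike in d3ko over d3con. Dazl, Ddx4 and Ifitm3 were called higher, as 4.75% of all genes were, and Prdm1 and Kit lower, as 3.51% were. In sorted bulk cells, a smaller share of naive cells and less RNA of these genes in each cell cannot be told apart.

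Induction of Foxa2 in embryonic stem cells asks what Foxa2 does without the differentiation protocol. Here 2 of the 10 members, Klf4 and Tbx3, were called higher in d2-FVFp than in d2-FVFn, where 6.96% of all genes were called higher, and none was called lower, against 1.47% of all genes. DESeq2 also called 2. The median log2 fold change of the 10 was -0.22, beside 0.01 for all genes, and it ran from -0.42 to 0.17 when single libraries were left out, positive without d2-FVFn replicate 1.

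Klf4 had 5.29 and 3.56 TPM in Venus-negative and 13.3 and 9.08 TPM in Venus-positive cells (log2 change of 1.29, SE 0.29, edgeR adjusted p = 0.0262). Tbx3 had 6.21 and 3.04 TPM against 19.8 and 15.3 TPM (1.88, SE 0.33, adjusted p = 0.0124). For both genes the groups did not overlap, and the Venus-positive level of Tbx3 was close to that of d0con. Klf4 was called without d2-FVFp replicate 2 and in none of the other 3 fits that left out a library, while Tbx3 was called in all 4. Neither was called when the test was made against a 2-fold change.

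Nr0b1 had 88.5 and 51.3 TPM in Venus-negative and 42.5 and 19.2 TPM in Venus-positive cells (-1.23, SE 0.39, edgeR adjusted p = 0.0706). It passed as lower in the fit with replicate number as block (-1.28), with no filter on low counts (-1.25) and without d2-FVFp replicate 1 (-1.89). Dppa5a had 5460 and 4160 TPM against 3750 and 2630 TPM (-0.64, SE 0.19, adjusted p = 0.0617). Zfp42, at 837 and 492 against 670 and 477 TPM, and Esrrb, at 27.8 and 15.4 against 21.4 and 13 TPM, had overlapping groups. Klf2 had 95 and 46.5 against 155 and 67.2 TPM (0.6, SE 0.43, adjusted p = 0.367), and it was called higher without d2-FVFp replicate 2. Klf5, Tfcp2l1 and Tcl1 had log2 fold changes of -0.18, 0.34 and -0.3 (adjusted p 0.485, 0.234 and 0.478). In both pairs of libraries replicate 1 was higher than replicate 2 for all 10 genes.

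The order of the groups was not the same for all members. By mean TPM, d3con was lowest for all members but Tbx3, whose d2-FVFn libraries (6.21 and 3.04 TPM) overlapped its d3con libraries. For Zfp42 d2-FVFn was highest by mean but overlapped d2-FVFp, which in turn overlapped d0ko, whereas for the other members except Tbx3 all doxycycline libraries lay below all day 0 libraries. The doxycycline line and the knockout clones were cultured differently, so these levels are set side by side with no test. For Klf4 and Tbx3 d3ko was highest by mean, with 35.7 ± 26.3 and 54.5 ± 30.9 TPM (SD, n = 3), overlapping d0ko in both.

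Across the 14 libraries the members followed each other to different degrees, as Pearson correlations of log2(TPM + 1) that are a description and share the group structure and depth of the libraries. Esrrb and Dppa5a were the most alike pair (r = 0.993). Tfcp2l1 was most like Tcl1 (0.98), and Klf5 was most like Tfcp2l1 (0.86). Klf2 was most like Esrrb (0.972), Nr0b1 and Tcl1 were most like Dppa5a (0.966 and 0.987), Klf4 was most like Tfcp2l1 (0.967), and Zfp42 was most like Klf2 (0.886). Tbx3 was most like Klf4 (0.891) and least like Zfp42 (0.422), the lowest value among all pairs. Against the mean profile of the other 9, Tbx3 had the lowest value (0.729) and Tcl1 the highest (0.989). Of 9739 other genes with a mean of at least 5 TPM, those most like the mean profile of the 10 were 1700029P11Rik (0.987), Gm6083, Tmem38b and Phf11d (0.983 each) and Gpa33 (0.978).

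The abundance-weighted transcript length in the tables, which moves when a gene uses transcripts of other lengths, was constant for 7 of the members. It ranged from 4661 to 4694 bases for Tbx3, from 1362 to 1393 for Tcl1 and from 4199 to 4208 for Esrrb. Esrrb was at 4199 in all 12 libraries other than d2-FVFp, where it was 4205 and 4208.

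A list of 12 other naive state and Klf genes was examined in the same comparisons. In d3con over d0con 12 of 12 were called lower, where 14.6% of all genes were. The changes ran from -1.41 for Klf9 to -7.19 for Dppa2 (SE 0.93, edgeR adjusted p = 0.000503), which encodes a chromatin-associated protein of pluripotent cells. Gbx2 (-6.56) and Tdh (-6.11), a metabolic enzyme of mouse embryonic stem cells, followed. In d3ko over d3con 11 of 12 were called higher, against 4.75% of all genes, with Dppa2 (4.95), Tdh (4.54) and Pecam1 (4.44) the largest, and Klf9 missed the threshold (1.11, adjusted p = 0.0501). As for the members, these calls depended on the libraries: 12 were called higher without d3ko replicate 2, 1 without d3con replicate 3, 3 without d3con replicate 1, and 0 with same-clone libraries summed, with both 75-base libraries left out or in a fit of only these 2 groups. These genes too were lower in the C17 library: Tdh had 468, 66.7 and 647 TPM in d3ko. In d3ko over d0ko Dppa2 alone of the 12 was called, and lower (-2.38, edgeR adjusted p = 0.0394), where 5.72% of all genes were called lower. The median of the 12 in that comparison was -1.19, or -0.73 without d3ko replicate 2. Of the 10 fits that left out a library, Dppa2 was called there in those without d3ko replicate 2 or 3 and lost in the other 8. In d2-FVFp over d2-FVFn only Nr5a2, an orphan nuclear receptor, was called, and it was lower (-2.04, SE 0.51, adjusted p = 0.0347), a call lost without d2-FVFn replicate 1 or d2-FVFp replicate 2.

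Of 8 genes of the LIF and Stat3 input, the kinase genes Pim1 (log2 fold change -1.97, edgeR adjusted p = 0.0111) and Pim3 (-1.73, adjusted p = 0.00465), both targets of Stat3, were called lower in d3con than in d0con, as 14.6% of all genes were. Pim1 and Pim3 were called higher in d3ko than in d3con (2.8 and 1.49, edgeR adjusted p 0.0136 and 0.0275), as 4.75% of all genes were. Both of these calls were lost without d3con replicate 1 or 3 and with same-clone libraries summed. They were also lost with both 75-base libraries left out and in a fit of only these 2 groups. The Pim3 call was lost as well without any 1 of the d0con or d0ko libraries and without d3ko replicate 1 or 3. Pim1 had 65.2, 16.9 and 68.6 TPM in d3ko, so that the C9 libraries were above the day 0 range of 18.5 to 30.8 TPM. Jak2, which encodes a kinase of the receptor, was called higher in d3con than in d0con (2.77, adjusted p = 0.00291), where 20.6% of all genes were called higher. It was called higher as well in d3ko over d0ko (1.77, edgeR adjusted p = 0.0287), where 11.6% of all genes were. The same held in d2-FVFp over d2-FVFn (2.12, edgeR adjusted p = 0.0128), where 6.96% of all genes were called higher. The Jak2 call in ko cells was lost without d0ko replicate 1 or d3ko replicate 1, that after doxycycline without d2-FVFn replicate 1, and the Pim1 call in d3con over d0con without d0con replicate 1. The receptor genes Lifr and Il6st and Stat3 itself were called in none of the comparisons. Of 6 genes of the Wnt input, only Tcf7l1, which encodes Tcf3, was called, lower in d3ko than in d0ko (-1.08, SE 0.18, edgeR adjusted p = 0.0034). In that comparison 5.72% of all genes were called lower. Tcf7l1 had 51.8 and 59.7 TPM in d0ko and 30.4, 35.1 and 23.8 TPM in d3ko. This call was lost without d0ko replicate 2 or d3ko replicate 3. Its d3con levels were 37.8, 34.2 and 38.2 TPM.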

How the data were processed

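RNA from sorted cells was amplified with a low-input kit and sequenced in 14 libraries. The authors aligned reads to mm10 with STAR and quantified each library with RSEM (versions not given in the sources used here). The deposited expected counts are estimated reads per gene, and the deposited TPM values are scaled by the authors for gene length and library total. The deposited lengths are averages over the transcripts of a gene.

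Expected counts were rounded, filtered at 1 CPM in at least 2 libraries, scaled with TMM and tested with edgeR 4.0.16 (quasi-likelihood F test, R 4.3.3) with Benjamini-Hochberg adjustment over all genes tested. The 10 day 0 and day 3 libraries were fitted together, as groups of 2 share the spread of the others, and the 4 doxycycline libraries alone. Calls needed an adjusted p under 0.05 and a log2 fold change above 1 in size, and SE is the log2 fold change divided by the square root of F. Counts were also simulated independently for each library, with no clone structure. In them 200 genes above a minimum level were set to change 4-fold. The test found 88.5% of these and made 9 false calls in d3ko over d3con (13899 genes). It found 99.5% and made 9 false calls in d2-FVFp over d2-FVFn (12943 genes). Libraries that share a clone, as in d3con and d3ko, were not simulated, so these rates do not cover them. TPM values were used as levels, with a pseudocount of 1 on the log2 scale.

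Groups were taken from the sample titles and clones from the study's list of libraries. Replicate numbers 1 and 2 pair day 0 with day 3 libraries by clone. Between genotypes and between doxycycline groups no label ties same-numbered libraries to a shared batch, though the replicate 1 libraries of d3con and d3ko share the 75-base read length. Alternatives were DESeq2 1.42.0, limma 3.58.1 on log2(TPM + 1), other scalings, filters and thresholds, blocks, and fits that left out libraries. The members, gene lists and marker lists were chosen with earlier results of these data known. Named were Foxa2, the 10 members, up to 3 called genes of largest change per list and comparison, genes whose values stand beside a member, and the 5 genes most like the members.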

Additional observations from a re-analysis of the deposited data

How the results depend on the processing

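Calls depended on libraries and clones more than on scaling or filters. Median-of-ratios scaling, scaling without chromosomes 8 and 14 (not run for the doxycycline libraries) and a mean count of at least 50 left each count of members as reported. For d3con over d0con between 8 and 10 members were called in all alternatives. For d3ko over d3con 9 became 1 at an adjusted p under 0.01 (Esrrb), and 0 in a fit of only the 2 groups, with both 75-base libraries left out, or with same-clone libraries of a day summed. The range was 0 to 10 when single libraries were left out. DESeq2 on only the 2 groups compared, chosen after seeing the data, called 10. For d3ko over d0ko 0 became 1 with the clone block (Zfp42, lower) and 1 with both day 3 libraries of the second clones left out (Tbx3, higher), and ranged from 0 to 1 without single libraries. The interaction went from 0 to 9 with DESeq2, to 10 with both day 3 libraries of the second clones left out, and ranged from 0 to 10 without single libraries. For d2-FVFp over d2-FVFn 2 became 0 in the test against a 2-fold change and 0 at an adjusted p under 0.01, with 1 to 3 called without single libraries. In those fits the log2 fold changes ranged from -0.1 to 1.24 for Klf2, from -0.57 to 0.2 for Zfp42, from -0.76 to 0.14 for Esrrb and from -0.61 to 0.03 for Tcl1. The causes were not tested. A fit that leaves 1 library in a group assumes that it varies like the others.

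With the replicate number as a block, 10 members were called lower in d3con over d0con, 9 higher in d3ko over d3con, 0 in d3ko over d0ko, d0ko over d0con and the interaction, and 3 in d2-FVFp over d2-FVFn (Nr0b1 lower, -1.28, in addition). Deviations of same-numbered libraries correlated across genes at 0.54, 0.29 and -0.01 in d3ko and d3con, at 0.29 in the doxycycline groups and at 0.11 at day 0. For the clone pairs of day 0 and day 3 the correlations were -0.04 to 0.06.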

Other observations

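The core pluripotency genes, which naive and primed cells share, did not follow the naive group in every library. Nanog had 40.2, 246 and 42.5 TPM in the d3con libraries, Pou5f1 (Oct4) 63.5, 319 and 59.7 TPM and Tdgf1 212, 1060 and 381 TPM, so that the C63 library, replicate 2, stood above both C59 libraries in all 3. The naive genes were low in all 3 d3con libraries. In d3ko Nanog had 254, 240 and 345 TPM and Pou5f1 522, 501 and 944 TPM, and here the C17 library was close to C9 replicate 1, in contrast to the naive genes. Sox2 followed the naive pattern, with 89.3, 14.7 and 86.1 TPM in d3ko and 2.71 to 7.42 TPM in d3con. Of these 6 genes Utf1 (log2 fold change -5.49), Sox2 (-4.31) and Pou5f1 (-3.53) were called lower in d3con than in d0con with edgeR, as 14.6% of all genes were. Sox2 (3.66) and Utf1 (3.29) were called higher in d3ko than in d3con, as 4.75% of all genes were, and Sall4 was called lower (-1.14), as 3.51% were. All 3 calls were lost without d3con replicate 3, with same-clone libraries summed, with both 75-base libraries left out and in a fit of only the 2 groups, and those of Sox2 and Utf1 also without d3con replicate 1. In d2-FVFp over d2-FVFn their log2 fold changes ran from -0.74 to -0.01, short of the fold threshold.

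Formative and primed epiblast genes moved in both directions. Fgf5 rose from 2.1 and 4.78 TPM in d0con to 403, 435 and 485 TPM in d3con (log2 fold change 6.8, edgeR adjusted p = 0.00175), while Foxd3 (-5.56) and Tcf15 (-5.47) fell. In d3ko Fgf5 had 39.3, 223 and 16.3 TPM, highest in the C17 library, which was lowest in the naive genes. In d3ko over d3con 2 of the 10 genes were called higher and 2 lower, against 4.75% and 3.51% of all genes. Those called higher were Foxd3 (3.13, edgeR adjusted p = 0.0227) and Tcf15 (2.56, edgeR adjusted p = 0.0417). Dnmt3b (-2.17, edgeR adjusted p = 0.00985) and Otx2 (-2.19, edgeR adjusted p = 0.0257) were called lower. Otx2 had 59.1, 129 and 29.9 TPM in d3ko. The Otx2 call was lost without replicate 1 or 3 of d3con, without replicate 1 or 3 of d3ko, and in those same 3 fits. The Foxd3 and Tcf15 calls were also lost without any 1 of these d3con or d3ko libraries. With same-clone libraries summed or both 75-base libraries left out, 0 genes were called higher. In d2-FVFp over d2-FVFn 6 of the 9 genes tested were called lower, against 1.47% of all genes, with Fgf5 (-2.21, adjusted p = 0.0276), Lef1 (-1.93, adjusted p = 0.00511) and Pou3f1 (-1.6, adjusted p = 0.00213) the largest, and none higher. The Fgf5 call was lost without d2-FVFn replicate 2 or d2-FVFp replicate 1. Whether the clones differ in these genes beyond the spread between libraries was not tested.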
